A study of Mus musculus with 18 samples.

Results

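Cytosolic nucleic acid sensing is described here through 10 genes whose products detect RNA or DNA in the cytosol, pass the signal on or limit it. They are the RNA sensors Ddx58, Ifih1 and Dhx58, the adaptors Mavs and Tmem173, the kinases Tbk1 and Ikbke, the kinase Eif2ak2, the RNA-editing enzyme Adar and the DNA exonuclease Trex1. The genes were chosen by name, out of 13598 genes with a value, by a rule that reads no measured value, although earlier results of these data were known when it was set. RNA-seq was performed on peritoneal macrophages, cells of the abdominal cavity that take up microbes and respond to lipopolysaccharide (LPS) of bacterial walls through the receptor TLR4. The cells came from mice of 3 genotypes, named TLR4-WT, TLR4-K730R and TLR4-K810R, and were mock-treated or received 100 ng/ml LPS for 6 h, which gave 6 groups of 3 libraries. TLR4-K730R and TLR4-K810R are knock-in lines on C57BL/6, made by gene editing, in which the named lysine of the intracellular TIR domain of TLR4 is replaced by arginine in every cell of the mouse. No group lacked the receptor. By the study's methods, peritoneal macrophages were collected from mice given thioglycolate medium in the abdominal cavity, which draws cells into it, so the macrophages of all 6 groups, mock included, were elicited ones. The comparisons asked how LPS moved these genes in each genotype and whether either substitution changed their level or their response.

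RIG-I (Ddx58) and MDA5 (Ifih1) are helicases that bind viral RNA, and LGP2 (Dhx58) is a related helicase that lacks the signalling domain and modulates the other two. Both signal through MAVS on mitochondria, whereas DNA in the cytosol is read by cGAS and relayed by STING (Tmem173), and both routes converge on the kinases TBK1 and IKKε (Ikbke), which phosphorylate IRF3 to start interferon production. TLR4 reaches the same kinases from endosomes through the adaptor TRIF, and secreted interferon in turn induces many of the sensors. PKR (Eif2ak2) stops translation when it meets double-stranded RNA, ADAR edits the cell's own double-stranded RNA so that it is not sensed, and TREX1 degrades cytosolic DNA.

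In GRCm38, Ddx58 (ENSMUSG00000040296) lies at chr4:40203773-40239828, Ifih1 (ENSMUSG00000026896) at chr2:62595798-62646255 and Dhx58 (ENSMUSG00000017830) at chr11:100694884-100704271. Mavs (ENSMUSG00000037523) lies at chr2:131234063-131248025, Tbk1 (ENSMUSG00000020115) at chr10:121546455-121586787 and Ikbke (ENSMUSG00000042349) at chr1:131254343-131279606. Eif2ak2 (ENSMUSG00000024079) lies at chr17:78852564-78882573, Adar (ENSMUSG00000027951) at chr3:89715022-89753446 and Trex1 (ENSMUSG00000049734) at chr9:109057933-109059734, and Tmem173 carries the number ENSMUSG00000024349. RefSeq promoters of GRCm38.p6, each running from 250 bases before to 50 bases after a start, were matched to 8 of the 10 genes. Adar had 3, Trex1 had 2 and the others had 1 each. No promoter of Dhx58 or Tmem173 was searched. They were searched on both strands for GAAANNGAAA, the core of the interferon-stimulated response element (ISRE), and for GGGNNTTTCC, a form of the NF-κB site. The ISRE-type letters were found at Ddx58, Ifih1 and Eif2ak2 and in 1131 of 32851 promoters of the table (3.44%), and the NF-κB-type letters at none of the 8 genes and in 535 promoters (1.63%). With no NF-κB-type match at these genes, an overlap of the 2 motifs could not arise. The windows below show the 3 matches, on the strand of the gene and with the matched letters in capitals, because they belong to 3 of the genes that rose after LPS. They lie at chr4:40239804-40239833, chr2:62646206-62646235 and chr17:78882535-78882564, all on the minus strand.
Ddx58: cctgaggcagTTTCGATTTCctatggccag
Ifih1: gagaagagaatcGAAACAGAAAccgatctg
Eif2ak2: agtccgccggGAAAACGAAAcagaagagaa
The Ddx58 match reads in the reverse direction and starts 2 bases after the RefSeq start. The Ifih1 match starts 32 bases after the RefSeq start and 65 bases before the first exon that the deposited tables list. The Eif2ak2 match starts 18 bases after the RefSeq start, at the first base of the deposited first exon. A match of letters is a description and was not tested for binding.

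The authors deposited FPKM values (fragments per kilobase of transcript, scaled to the mapped fragments of a library) of single transcript events such as first exons, last exons and skipped exons. The value of a gene is here taken from the end with the higher total, its first exons or its last exons. Values are scaled by length, so levels of different genes can be set side by side, although a gene with unlisted end exons has a partial value. The tables hold no read counts, so the depth behind each value is unknown and no counting interval can be given. Differences were tested with limma on log2(FPKM + 1) over 9707 genes, with Benjamini-Hochberg adjustment, and a gene is called where the adjusted p is below 0.01. Log2 differences are on this scale, so that changes of genes with low values appear smaller than they are, and folds are ratios of mean FPKM. The labels do not say that the 3 libraries of a group came from separate mice, so p-values measure the spread between these libraries, which may be technical. Across genes, which are not independent replicates, log2 values correlated with r of 0.961 to 0.975 within groups and of at most 0.974 between groups. The point mutations cannot be read from these values.

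Of the 10 genes, 9 had events, and each of the 9 was at or above 1 FPKM in all 18 libraries and entered the test. No event carried the number of Trex1. Its whole span of 1802 bases lies within Atrip on the same strand, and 1 first-exon event at the annotated first exon of Trex1, chr9:109059647-109059734, was listed under Atrip at 32.7 FPKM in a single library, replicate 1 of mock-treated TLR4-WT. The level of Trex1 is therefore not reported. Ikbke, Adar, Dhx58 and Eif2ak2 each overlap another gene on the opposite strand, and the use of strand in counting is not stated, so reads of the overlapping stretches cannot be told apart.

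The label macrophage was checked against fixed markers. Of 8 macrophage markers 7 had events, and their summed level was 13470 to 14785 FPKM in mock-treated and 7289 to 9465 FPKM in LPS-treated TLR4-WT libraries, mostly from Lyz2, with no listed event of Cd14 in all but 1 of the 18 libraries and no events of Itgam. The sum was also lower after LPS in TLR4-K730R (13624 to 14742 against 7598 to 9792 FPKM) and TLR4-K810R (11633 to 13949 against 9098 to 10057 FPKM). Of the 6 tested macrophage markers 1, 1 and 2 rose (Fcgr1 in each genotype, and Adgre1 in TLR4-K810R) and 4, 4 and 1 fell, so the markers did not move one way. T cell markers summed to at most 0.958 FPKM, B cell markers to at most 3.66 FPKM and eosinophil markers to at most 2.79 FPKM in any library, and the B cell marker Cd79b fell after LPS in both mutants. Intestinal epithelium markers summed in TLR4-K810R to between 9.01 and 45.8 FPKM without LPS and between 0.127 and 4.74 FPKM with LPS, with 2 of 3 tested genes called lower (Fabp1 and Epcam), and none was called in the other genotypes. All 5 neutrophil markers had events, and their sum went from 24.6 to 35.2 FPKM without LPS to 186 to 239 FPKM with LPS in TLR4-WT, from 34.6 to 40.7 to 178 to 229 in TLR4-K730R and from 36.9 to 47.3 to 167 to 193 in TLR4-K810R. This sum was nearly all S100a8, which rose in each genotype, while in TLR4-WT limma called Retnlg of the same list lower (-1.58, adjusted p = 7.46e-05) and the neutrophil markers Ly6g and Mpo had no listed event in any TLR4-WT library. Genes without a listed event count as 0, as Cd14 does in nearly all of these macrophage libraries, so a 0 does not show that a gene was off. The conventional dendritic cell list (2 of 4 with events, nearly all Ccr7, with no events of Flt3 or Xcr1) summed to 0 to 0.931 FPKM without LPS and 4.01 to 4.95 FPKM with LPS in TLR4-WT (TLR4-K730R 0.321 to 0.438 and 3.38 to 4.47 FPKM, TLR4-K810R 0.330 to 1.15 and 3.03 to 4.08 FPKM), and its 1 tested gene rose in each genotype. The plasmacytoid dendritic cell list, nearly all Bst2, went from sums of 128 to 233 FPKM to sums of 630 to 699 FPKM in TLR4-WT, and its sums with LPS were 598 to 718 FPKM (TLR4-K730R) and 623 to 747 FPKM (TLR4-K810R). The part of these marker levels in the results was not tested. In bulk RNA, fewer cells of a type and less RNA per cell cannot be told apart.

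**Figure D1:**
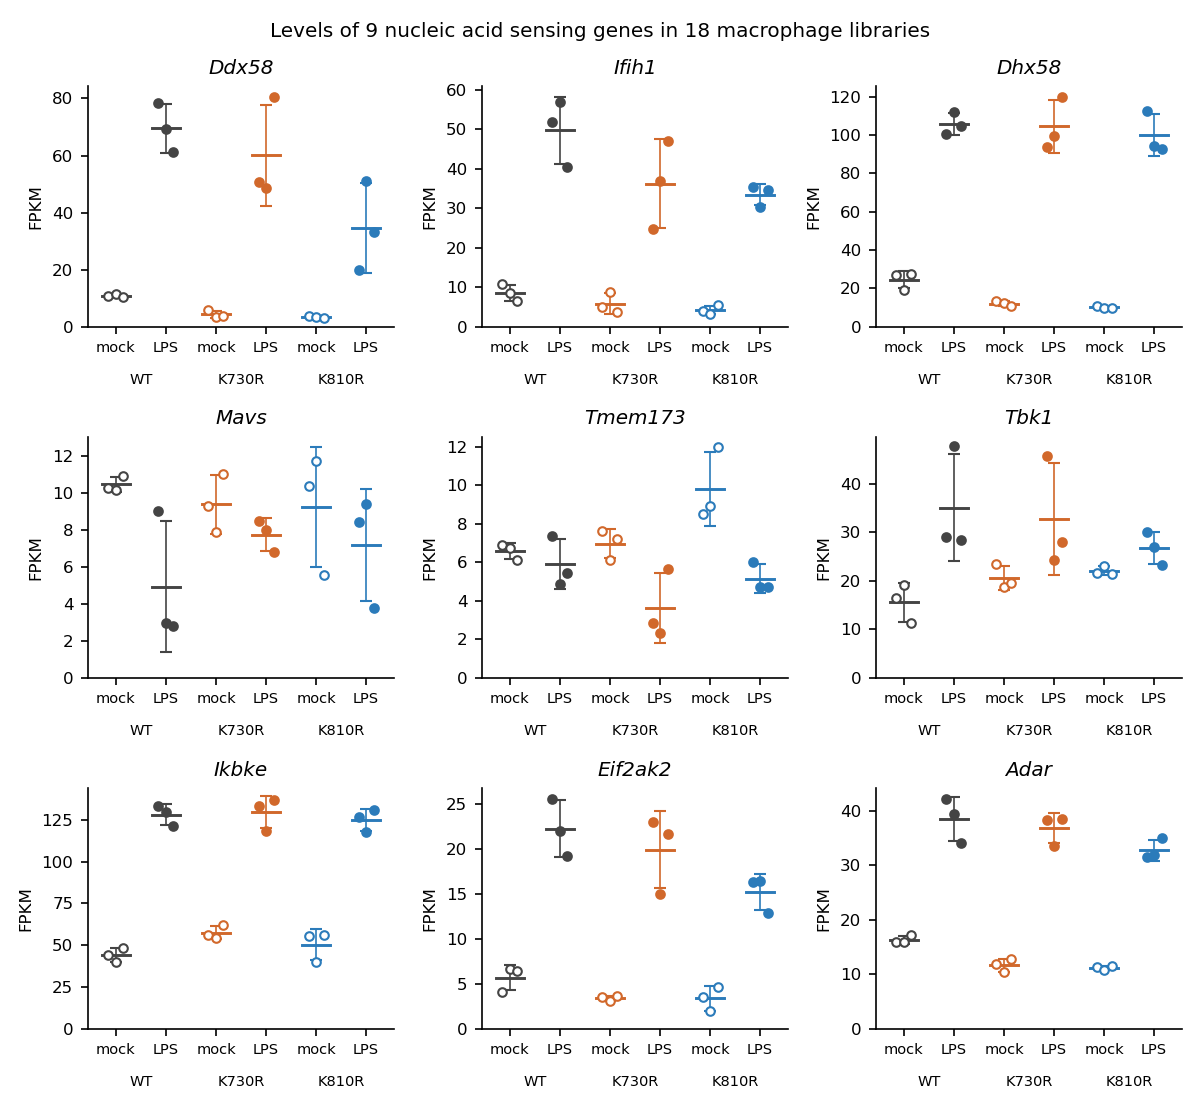
Level of each of the 9 measured genes in all 18 libraries, in FPKM from 0, with 1 point per library and, for each group (WT, K730R and K810R, mock or LPS), a bar at the mean of its 3 libraries with whiskers of 1 SD. Ddx58, Ifih1, Dhx58, Tbk1, Ikbke, Adar and Eif2ak2 lie higher in every LPS-treated library than in every mock-treated library of the same genotype. Tbk1 does so by a narrow margin in both mutants, and Mavs and Tmem173 do not.

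LPS raised all 3 RNA sensors in all 3 genotypes. Ddx58, the gene of RIG-I, was at 10.9, 11.4 and 10.3 FPKM in mock-treated and at 78.4, 69.3 and 61.1 FPKM in LPS-treated TLR4-WT macrophages. In TLR4-K730R it was at 5.74, 3.54 and 3.90 FPKM without LPS and at 50.9, 48.8 and 80.5 FPKM with LPS. In TLR4-K810R it was at 3.68, 3.31 and 3.10 FPKM without LPS and at 19.7, 51.1 and 33.1 FPKM with LPS. No LPS-treated library overlapped a mock-treated one, and replicate 1 of LPS-treated TLR4-K810R was the lowest of the 9 treated libraries. Mean levels rose 6.39-fold in TLR4-WT, 13.7-fold in TLR4-K730R and 10.3-fold in TLR4-K810R, with log2 differences of 2.56, 3.49 and 2.93 (SE 0.26 each). The adjusted p from limma was 8.53e-07, 2.46e-08 and 2.23e-07.

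Ifih1, the gene of MDA5, was at 10.7, 8.41 and 6.498 FPKM in mock-treated and at 51.7, 57.0 and 40.5 FPKM in LPS-treated TLR4-WT libraries. In TLR4-K730R it went from 5.05, 8.74 and 3.80 FPKM to 24.8, 36.8 and 47.1 FPKM, and in TLR4-K810R from 3.997, 3.25 and 5.37 FPKM to 35.4, 30.4 and 34.5 FPKM. The treated and untreated libraries were apart in each genotype. Log2 differences of 2.42, 2.46 and 2.74 (SE 0.26 each) came with adjusted p-values from limma of 1.75e-06, 1.41e-06 and 5.1e-07 in TLR4-WT, TLR4-K730R and TLR4-K810R.

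Dhx58, the gene of LGP2, was the most abundant of the 3 sensor transcripts in every group mean. It was at 26.9, 19.3 and 27.4 FPKM in mock-treated TLR4-WT libraries and at 101, 112 and 105 FPKM after LPS. In TLR4-K730R it was at 13.3, 12.2 and 10.6 FPKM and then at 93.7, 99.8 and 120.1 FPKM, and in TLR4-K810R at 11.0, 9.98 and 9.78 FPKM and then at 113, 94.5 and 92.7 FPKM. The 3 LPS-treated groups overlapped one another, whereas the untreated TLR4-WT libraries lay above all untreated mutant libraries. The rise was 4.31-fold, 8.69-fold and 9.73-fold in TLR4-WT, TLR4-K730R and TLR4-K810R, with log2 differences of 2.08, 3.01 and 3.16 (SE 0.14 each). The adjusted p from limma was 7.37e-09, 9.88e-11 and 6.51e-11.

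The 2 adaptors did not rise. Mavs, which carries the signal of RIG-I and MDA5, was at 10.3, 10.2 and 10.9 FPKM in mock-treated TLR4-WT libraries and at 9.03, 2.96 and 2.79 FPKM after LPS. Its LPS-treated libraries all lay lower but differed widely among themselves. In TLR4-K730R Mavs was at 9.27, 7.86 and 11.0 FPKM and then at 8.49, 7.97 and 6.79 FPKM, and in TLR4-K810R at 10.4, 11.7 and 5.57 FPKM and then at 8.45, 9.38 and 3.75 FPKM, with overlap in both mutants. The log2 differences were -1.11, -0.24 and -0.34 (SE 0.35 each), with adjusted p-values from limma of 0.0168, 0.59 and 0.459. When the first LPS-treated TLR4-WT library, the one near the mock level, was left out, the TLR4-WT difference was -1.56 and was called (adjusted p = 0.000782 from limma).

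Tmem173, the gene of STING, was at 6.90, 6.71 and 6.11 FPKM in mock-treated and at 7.34, 4.87 and 5.46 FPKM in LPS-treated TLR4-WT libraries, which overlapped. In TLR4-K730R it fell from 7.59, 6.11 and 7.20 FPKM to 2.86, 2.31 and 5.67 FPKM, and in TLR4-K810R from 8.50, 8.93 and 12.0 FPKM to 6.00, 4.72 and 4.68 FPKM. In both mutants every treated library lay below every untreated one. The log2 differences were -0.15, -0.85 and -0.81 (SE 0.22 each), and the adjusted p from limma was 0.594, 0.0043 and 0.00729, so both mutants passed the threshold and TLR4-WT did not. Over all tested genes the median LPS difference was itself -0.28, -0.36 and -0.26 in the same order of genotypes. With median-of-ratios scaling, which removes most of this shift, the Tmem173 differences were 0.13, -0.51 and -0.56 and neither mutant was called (adjusted p = 0.0846 and 0.0675 from limma). With quantile normalization they were 0.13, -0.49 and -0.59 (adjusted p = 0.0804 and 0.0422 from limma in the mutants), again not called. The call in TLR4-K730R was also lost without replicate 1 or 3 of its mock-treated or replicate 1 or 2 of its LPS-treated libraries, and that in TLR4-K810R without any mock-treated replicate or replicate 2 or 3 of its LPS-treated libraries.

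The 2 kinases differed in how evenly they responded. Ikbke, the gene of IKKε, was the most abundant of the 9 transcripts in every group mean, at 44.2, 40.0 and 48.6 FPKM in mock-treated and 134, 129.6 and 121 FPKM in LPS-treated TLR4-WT libraries. In TLR4-K730R it went from 56.1, 54.4 and 61.9 FPKM to 133, 119 and 137 FPKM, and in TLR4-K810R from 55.5, 39.7 and 55.9 FPKM to 127, 118 and 131 FPKM. The libraries of the 3 genotypes overlapped after LPS and were far from the untreated ones. The log2 differences of 1.52, 1.16 and 1.31 (SE 0.13 each) were called in all 3 genotypes, with adjusted p-values from limma of 7.77e-08, 1.55e-06 and 4.9e-07.

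Tbk1 was at 16.4, 19.0 and 11.2 FPKM in mock-treated and at 29.0, 47.8 and 28.5 FPKM in LPS-treated TLR4-WT libraries. In TLR4-K730R it was at 23.4, 18.8 and 19.5 FPKM and then at 45.8, 24.3 and 28.1 FPKM, and in TLR4-K810R at 21.7, 23.1 and 21.3 FPKM and then at 30.02, 27.0 and 23.3 FPKM. The treated libraries lay above the untreated ones in each genotype, by a narrow margin in both mutants. The log2 differences were 1.11, 0.60 and 0.26 (SE 0.24 each), with adjusted p-values from limma of 0.0011, 0.0464 and 0.396, so the TLR4-WT rise alone was called. That call was lost in a fit of the compared groups alone (adjusted p = 0.0118 from limma) and without replicate 2 or replicate 3 of all groups (0.0113 and 0.0203). Under median-of-ratios scaling the TLR4-K730R rise was called too (0.996, adjusted p = 0.00405 from limma), while without replicate 1 of its LPS-treated libraries it was 0.34. The annotated end of Tbk1, at position 121546455, had no listed last exon, so its values rest on the first exon. The 1 listed last exon, chr10:121551080-121551322, lies inside the gene and held 0.315 to 2.94 FPKM in TLR4-WT libraries. From this internal exon alone the TLR4-WT difference was -0.80 (adjusted p = 0.403 from limma), which does not read the end of the gene.

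The genes of the 2 double-stranded RNA-binding effectors rose in all 3 genotypes. Eif2ak2, the gene of PKR, was at 4.06, 6.64 and 6.41 FPKM in mock-treated and at 25.6, 22.0 and 19.3 FPKM in LPS-treated TLR4-WT libraries. In TLR4-K730R it went from 3.49, 3.03 and 3.60 FPKM to 23.1, 15.03 and 21.7 FPKM, and in TLR4-K810R from 3.56, 1.95 and 4.70 FPKM to 16.3, 16.5 and 12.9 FPKM. No treated library overlapped an untreated one of its genotype. Log2 differences of 1.81, 2.24 and 1.93 (SE 0.23 each) came with adjusted p-values from limma of 8.16e-06, 7.69e-07 and 5.15e-06.

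Adar was at 15.9, 16.0 and 17.2 FPKM in mock-treated and at 42.2, 39.4 and 34.2 FPKM in LPS-treated TLR4-WT libraries. In TLR4-K730R it was at 11.8, 10.4 and 12.7 FPKM and then at 38.5, 33.7 and 38.5 FPKM, and in TLR4-K810R at 11.3, 10.8 and 11.5 FPKM and then at 31.5, 31.9 and 35.0 FPKM. Within each group the libraries lay close together, and the treated groups were well above the untreated ones. The log2 differences were 1.18, 1.59 and 1.47 (SE 0.11 each), with adjusted p-values from limma of 1.78e-07, 5.53e-09 and 1.54e-08.

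In all, 7 of the 9 measured genes rose after LPS in TLR4-WT, against 10.4% of all tested genes, and none fell, against 23.9%. In TLR4-K730R 6 rose and 1 fell, against 9.32% and 26.5% of all genes, and in TLR4-K810R also 6 rose and 1 fell, against 9.08% and 19.7%. The gene that fell was Tmem173, and the split became 7 and 0 (TLR4-K730R) and 6 and 0 (TLR4-K810R) under median-of-ratios scaling, and 6 and 0 in both under quantile normalization. Treated and untreated libraries did not overlap for 7 higher and 1 lower gene in each genotype, where 15.5% of all genes were higher and 39.5% lower without overlap in TLR4-WT (TLR4-K730R 13.8% and 45%, TLR4-K810R 14.6% and 37.9%). The median log2 difference of the 9 genes was 1.52, 1.59 and 1.47. Their summed level was 138 to 146 FPKM in mock-treated and 418 to 485 FPKM in LPS-treated TLR4-WT libraries, 125 to 136 and 387 to 485 FPKM in TLR4-K730R and 113 to 129.6 and 370.5 to 387 FPKM in TLR4-K810R.

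**Figure D2:**
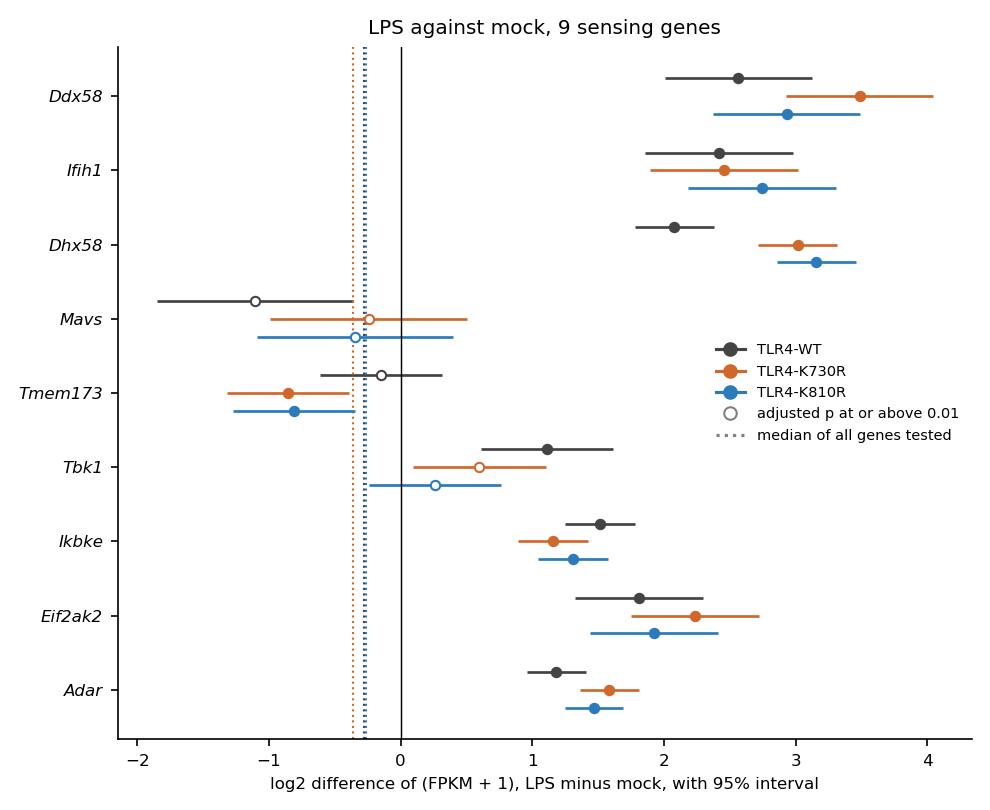
Log2 difference between LPS-treated and mock-treated macrophages on the log2(FPKM + 1) scale for each of the 9 genes in TLR4-WT, TLR4-K730R and TLR4-K810R, with 95% confidence intervals from limma and the median of all tested genes marked. Dhx58 lies at 2.08 in TLR4-WT and at 3.01 and 3.16 in the mutants, Ikbke between 1.16 and 1.52, and Mavs and Tmem173 at or below 0.

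Without LPS, Dhx58 was lower in the macrophages of both mutants and Ddx58 in those of TLR4-K810R, and the 2 comparisons below share the TLR4-WT libraries. In mock-treated TLR4-K730R, 1 of the 9 genes was called lower, against 0.216% of all tested genes, and none higher, against 0.0515%. That gene was Dhx58 (log2 difference -0.96, SE 0.14, adjusted p = 0.0039 from limma), at 12.0 ± 1.36 FPKM where TLR4-WT was at 24.5 ± 4.55 FPKM (SD, n = 3 each). Ddx58 was at 4.39 ± 1.18 against 10.9 ± 0.555 FPKM (-1.16, adjusted p = 0.0667 from limma) and Adar at 11.6 ± 1.20 against 16.4 ± 0.745 FPKM (-0.46, adjusted p = 0.0667), neither called. Eif2ak2 (-0.60, adjusted p = 0.542 from limma) and Ifih1 (-0.52, adjusted p = 0.701) were not called either. The Ifih1 difference was -0.80 or -0.29 without replicate 2 or 3 of mock-treated TLR4-K730R. Libraries of the 2 genotypes did not overlap for 4 lower genes, Ddx58, Dhx58, Adar and Eif2ak2, and for 1 higher gene, Ikbke, where 7.45% of all genes were lower and 8.91% higher without overlap. The Dhx58 call was lost without replicate 1 or 3 of mock-treated TLR4-WT (adjusted p = 0.0276 and 0.0261 from limma) or replicate 2 or 3 of mock-treated TLR4-K730R (0.0218 and 0.0255), with log2 differences from -0.97 to -0.87, and in a fit of the 2 groups alone (adjusted p = 0.125 from limma). It was also lost with replicate number as a block in the fit (adjusted p = 0.0109 from limma). The same held without replicate 1, 2 or 3 of all groups (0.131, 0.0792 and 0.11).

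In mock-treated TLR4-K810R, 2 of the 9 genes were called lower, against 0.649% of all tested genes, and none higher, against 0.927%. Dhx58 was at 10.3 ± 0.680 FPKM where TLR4-WT was at 24.5 ± 4.55 FPKM (log2 difference -1.17, SE 0.14, adjusted p = 0.000214 from limma). Ddx58 was at 3.36 ± 0.293 FPKM against 10.9 ± 0.555 FPKM (-1.45, SE 0.26, adjusted p = 0.0054 from limma; SD, n = 3 in each group). Ifih1 was at 4.20 ± 1.08 against 8.54 ± 2.11 FPKM (-0.87, adjusted p = 0.0964 from limma) and Adar at 11.2 ± 0.328 against 16.4 ± 0.745 FPKM (-0.51, adjusted p = 0.0113), and neither was called. Adar was called lower with a pseudocount of 0.1, with no filter on low values, with quantile normalization and with library weights (adjusted p = 0.00943, 0.00762, 0.00629 and 0.00523 from limma). Eif2ak2 was at 3.40 ± 1.38 against 5.70 ± 1.43 FPKM (-0.63, adjusted p = 0.183 from limma), and the difference was -0.37 without replicate 2 of mock-treated TLR4-K810R. Libraries did not overlap for 4 lower genes, Ddx58, Ifih1, Dhx58 and Adar, and for 2 higher genes, Tmem173 and Tbk1, where 6.64% of all genes were lower and 14.2% higher without overlap. The Ddx58 call was lost without any 1 of the 6 libraries compared (log2 differences from -1.499 to -1.404, adjusted p from 0.0136 to 0.0274 from limma). It was also lost with replicate number as a block in the fit (adjusted p = 0.0123 from limma) and without replicate 1, 2 or 3 of all groups (0.039, 0.0602 and 0.114). The Dhx58 call was lost only when replicate 1, 2 or 3 was left out of all groups at once (adjusted p = 0.0277, 0.0155 and 0.0178 from limma) or in a fit of the 2 groups alone (0.0376).

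Marker sums of other cell types also lay apart between the untreated genotypes, although few single markers were called. Called were Retnlg of the neutrophil list, lower in TLR4-K730R, Fabp1 and Col1a1, higher in TLR4-K810R, and Bst2, lower in both, and no mast cell marker was called. Intestinal epithelium markers (4 of 4 with events) summed to 0.118 to 0.594 FPKM in TLR4-WT, with no listed event of Fabp1, Vil1 or Epcam, to 6.04 to 30.5 FPKM in TLR4-K730R and to 9.01 to 45.8 FPKM in TLR4-K810R. Mesothelium and fibroblast markers (4 of 4), mostly Col1a1, summed to 7.05 to 18.2, 21.4 to 27.4 and 41.6 to 91.9 FPKM in these groups, and mast cell markers (4 of 4) to 3.37 to 4.18, 0.494 to 1.81 and 0.427 to 1.81 FPKM. The plasmacytoid dendritic cell list (3 of 4, with no events of its defining gene Siglech) was nearly all Bst2, which interferon also induces in other cells, and summed to 128 to 233, 62.8 to 84.0 and 52.8 to 73.2 FPKM. The part of these levels in the lower sensor transcripts was not tested.

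**Figure D3:**
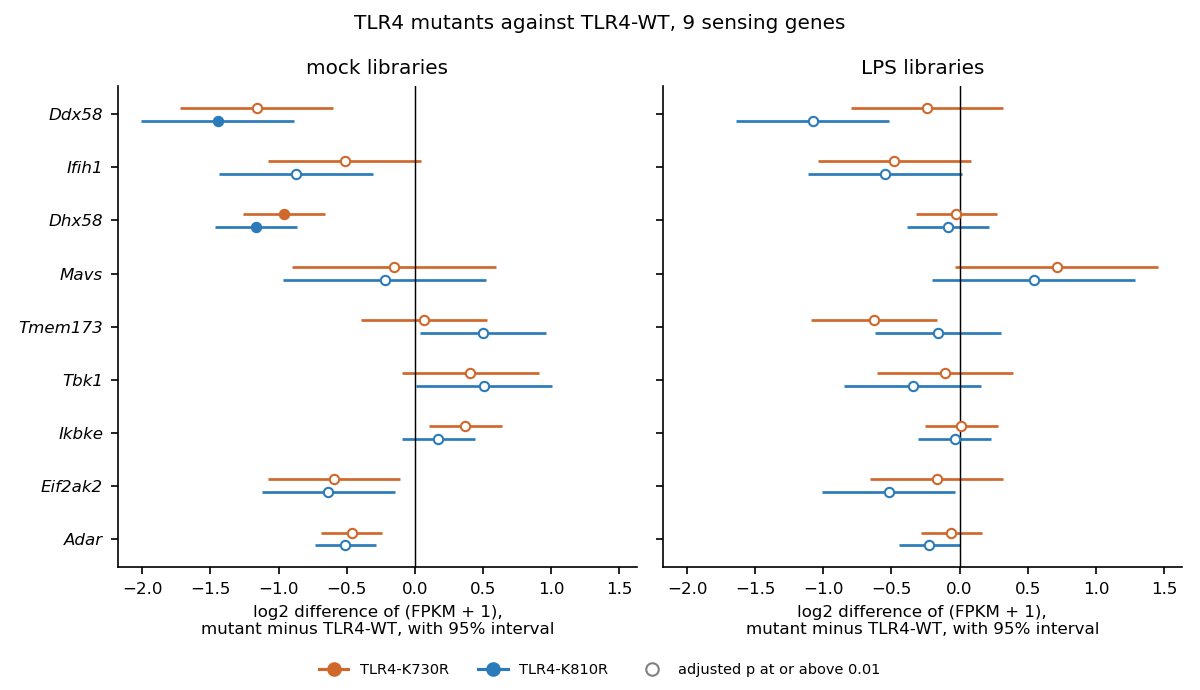
Log2 difference between each mutant and TLR4-WT on the log2(FPKM + 1) scale, without LPS and with LPS, for the 9 genes, with 95% confidence intervals from limma and filled points where the gene was called. Without LPS, Dhx58 is called lower in TLR4-K730R (-0.96) and in TLR4-K810R (-1.17) and Ddx58 in TLR4-K810R (-1.45), and with LPS no gene is called.

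After LPS, no member was called between either mutant and TLR4-WT. Between LPS-treated TLR4-K730R and TLR4-WT limma called none of the 9 genes and 0% of all tested genes, while 746 genes, 1 of them a member (Tmem173), had an unadjusted p below 0.05. Ddx58 differed by -0.24 on the log2 scale (95% confidence interval -0.80 to 0.32, adjusted p = 0.864 from limma), and no member was without overlap, where 7.54% of all genes were lower and 3.32% higher in this way. For TLR4-K810R with LPS limma again called none of the 9, against 0.134% of all tested genes, with 3 members and 2118 genes at an unadjusted p below 0.05. Libraries did not overlap for 3 lower members, Ddx58, Ifih1 and Eif2ak2, and for no higher one, against 7.89% of all genes lower and 17.4% higher. Ddx58 was at 34.6 ± 15.7 against 69.6 ± 8.64 FPKM (SD, n = 3 each), a log2 difference of -1.08 (95% confidence interval -1.64 to -0.52, adjusted p = 0.0455 from limma), which passes at a threshold of 0.05. Ifih1 was at 33.4 ± 2.68 against 49.7 ± 8.43 FPKM (-0.55, adjusted p = 0.244 from limma) and Eif2ak2 at 15.2 ± 2.03 against 22.3 ± 3.20 FPKM (-0.52, adjusted p = 0.201). Dhx58, in contrast, was at 106 ± 5.81 FPKM in TLR4-WT, and TLR4-K730R (105 ± 13.8 FPKM) and TLR4-K810R (99.9 ± 11.0 FPKM) are neighbours that do not differ beyond their spread.

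The 2 mutants were also compared with each other. Without LPS limma called none of the 9 genes, against 0.0824% of all tested genes, and none had an unadjusted p below 0.05. Tmem173 alone was without overlap, higher in TLR4-K810R, as were 12.6% of all genes, where 6.04% were lower. With LPS none was called, against 0.0618% of all genes, none was without overlap, where 21.3% of all genes were higher and 4.44% lower, and 2 had an unadjusted p below 0.05, as had 1822 of the 9707 genes, a share close to that of the members. These were Ddx58, with a log2 difference of -0.84 in TLR4-K810R against TLR4-K730R (95% confidence interval -1.40 to -0.28, adjusted p = 0.107 from limma), and Tmem173, with 0.47 (0.01 to 0.94, adjusted p = 0.254). Both moved when single libraries were left out: Ddx58 was at -0.50 without replicate 1 of LPS-treated TLR4-K810R, and Tmem173 at 0.27 or 0.77 without replicate 2 or 3 of LPS-treated TLR4-K730R.

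Whether the LPS response itself differed by genotype was tested as an interaction. None of the 9 genes was called in either mutant, against 0.0412% (TLR4-K730R) and 0.124% (TLR4-K810R) of all tested genes, while 4 and 3 of the 9, and 681 and 1277 of the 9707 genes, had an unadjusted p below 0.05. The response of Dhx58 exceeded that of TLR4-WT by 0.94 on the log2 scale in TLR4-K730R (adjusted p = 0.137 from limma) and by 1.08 in TLR4-K810R (95% confidence interval 0.658 to 1.501, adjusted p = 0.0217 from limma). The latter was called without replicate 2 of mock-treated TLR4-WT (1.24, adjusted p = 0.00594 from limma). For Ddx58 the values were 0.92 (adjusted p = 0.647 from limma) and 0.37 (0.714), and the latter was 0.71 or 0.046 without replicate 1 or 2 of LPS-treated TLR4-K810R. Tbk1 gave -0.52 (adjusted p = 0.811 from limma) and -0.85 (0.29), Tmem173 -0.70 (0.681) and -0.66 (0.378), and Mavs 0.87 (0.78) and 0.76 (0.545). The called Tbk1 rise in TLR4-WT and the called Tmem173 falls in the mutants were thus not shown to differ between genotypes.

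Adar has alternative first exons, and their events were read apart. In the mouse GENCODE annotation, the upstream first exon, chr3:89715022-89715150, belongs to transcript Adar-202, whose start codon lies in exon 2 and whose product has 930 residues. The downstream first exon, chr3:89730748-89730838, opens Adar-201 and Adar-203, which hold a start codon in exon 1 at position 89730811 and encode 1152 and 1178 residues, and also Adar-204 and Adar-205, which start in exon 2 and encode 660 and 634 residues. The long form, known as p150, is the cytoplasmic and interferon-inducible one in textbooks. The 250 bases before the RefSeq start that lies at or nearest before each first exon are shown because the 2 exons are read from separate starts. They are chr3:89714772-89715021 and chr3:89730468-89730717, both on the plus strand of GRCm38.p6. No motif is marked because neither searched motif was matched letter for letter. The downstream promoter runs on to position 89730767 and there holds gaaacgaaagtgaac, which resembles the ISRE-type letters without matching them. The search thus does not show that such an element is absent.
Adar upstream start: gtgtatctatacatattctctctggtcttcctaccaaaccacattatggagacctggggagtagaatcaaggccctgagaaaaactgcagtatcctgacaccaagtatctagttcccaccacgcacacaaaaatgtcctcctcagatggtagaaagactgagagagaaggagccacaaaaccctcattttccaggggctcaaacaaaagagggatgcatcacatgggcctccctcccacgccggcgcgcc
Adar downstream start: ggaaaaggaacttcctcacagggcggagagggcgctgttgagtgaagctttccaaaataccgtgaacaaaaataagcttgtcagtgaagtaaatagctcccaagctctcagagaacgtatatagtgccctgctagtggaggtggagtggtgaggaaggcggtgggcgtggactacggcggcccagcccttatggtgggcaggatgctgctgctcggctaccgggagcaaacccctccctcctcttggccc

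The downstream first exon was at 13.2, 12.5 and 9.22 FPKM in mock-treated and at 35.4, 32.7 and 31.4 FPKM in LPS-treated TLR4-WT libraries. In TLR4-K730R it was at 5.59, 6.74 and 11.0 FPKM and then at 32.0, 18.7 and 28.4 FPKM, and in TLR4-K810R at 6.44, 5.58 and 6.07 FPKM and then at 18.1, 26.9 and 28.8 FPKM. In each genotype the treated libraries lay above the untreated ones. The log2 differences were 1.45, 1.66 and 1.84 (SE 0.24 each), all called (adjusted p = 0.000276, 8.19e-05 and 3.65e-05 from limma over all first-exon events). In TLR4-WT, TLR4-K730R and TLR4-K810R, 20.2%, 21.1% and 16.7% of first-exon events were called in either direction. The call of the downstream exon in TLR4-K730R was lost in a fit of the compared groups alone (adjusted p = 0.0125 from limma) and without replicate 1 of all groups (0.0108). Its call in TLR4-WT was lost without replicate 2 of all groups (0.0128).

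The upstream first exon was at 2.53, 2.56 and 7.53 FPKM in mock-treated and at 6.41, 6.44 and 2.08 FPKM in LPS-treated TLR4-WT libraries. In TLR4-K730R it was at 6.03, 3.05 and 1.57 FPKM and then at 5.50, 14.6 and 9.89 FPKM, and in TLR4-K810R at 4.18, 4.93 and 4.43 FPKM and then at 12.6, 4.77 and 4.74 FPKM. Treated and untreated libraries overlapped in each genotype, and no log2 difference was called (0.22, 1.31 and 0.48, SE 0.50 each, adjusted p = 0.79, 0.0598 and 0.535 from limma). The 95% confidence interval in TLR4-WT, -0.84 to 1.29, is wide, and the difference between the 2 first exons was not tested. The downstream exon held 48.1% to 93.8% of the first-exon FPKM of both over the 18 libraries.

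**Figure D4:**
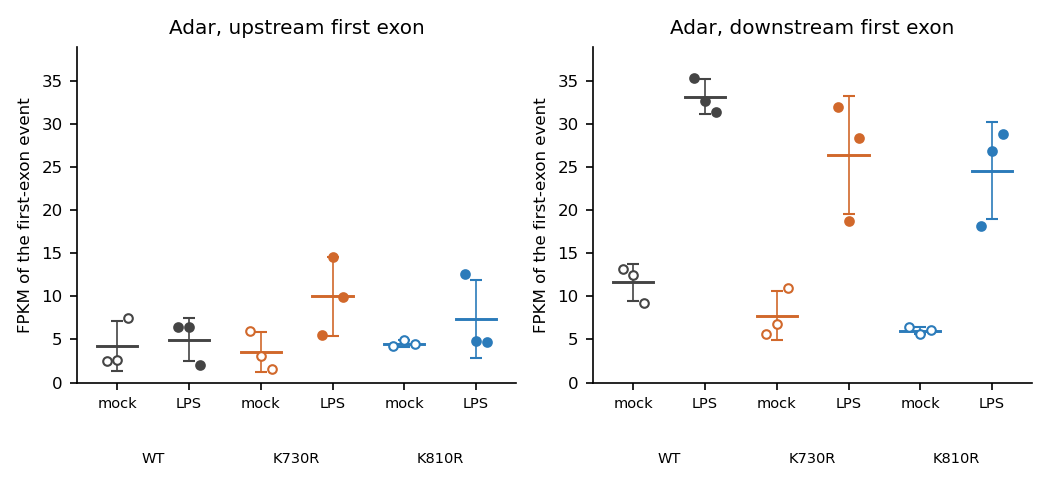
FPKM of the upstream and the downstream first exon of Adar in each of the 18 libraries, by group, with 1 point per library and a bar at the mean of 3 libraries with whiskers of 1 SD. The downstream exon lies at 5.58 to 13.2 FPKM without LPS and at 18.1 to 35.4 FPKM with LPS, and the upstream exon overlaps between both treatments.

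Of 23 first-exon and last-exon events of the 9 genes that passed the filter on low values, 12 were first exons and 11 last exons. After LPS limma called 8, 7 and 7 of the 12 first exons higher in TLR4-WT, TLR4-K730R and TLR4-K810R, and 1 lower in TLR4-K810R, that of Tmem173. The shares of all first-exon events given above count both directions. It called 5 of the 11 last exons in each genotype, all higher. Of the last-exon events of all genes, 30%, 32.1% and 26% were called in either direction. Ikbke used 2 first exons, and both rose in each genotype, by 1.71, 1.39 and 1.33 on the log2 scale at chr1:131276894-131276951 and by 1.21, 0.81 and 1.22 at chr1:131279331-131279606. For Ifih1 the distal last exon rose by 2.71, 3.12 and 2.98 in TLR4-WT, TLR4-K730R and TLR4-K810R. An internal last exon at chr2:62633488-62635202 gave -0.85, -1.41 and -0.54 and was not called. In TLR4-WT its value rests on mock-treated replicate 1 (4.87 FPKM), and in TLR4-K810R on mock-treated replicate 3 (2.09 FPKM). The other libraries of these genotypes were at most at 0.000515 FPKM or unlisted. Ddx58 likewise had a distal last exon that rose by 2.60, 3.54 and 3.25 and an internal one at chr4:40223431-40224056 that gave 0.75, 0.61 and 0.85 and was not called. Of the 2 overlapping first exons of Mavs, chr2:131234063-131234355 gave -1.64 in TLR4-WT (adjusted p = 0.0263 from limma) and the shorter one, which ends at position 131234127, gave -0.66 (0.208). For Dhx58 and Eif2ak2 the first exon and the distal last exon were both called in each genotype.

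Other genes of the pathway were read from 5 lists with 47 genes in all, of which 42 had events and 40 were tested. After LPS 10 rose and 11 fell in TLR4-WT, 12 rose and 11 fell in TLR4-K730R, and 11 rose and 10 fell in TLR4-K810R. Against 10.4%, 9.32% and 9.08% of all tested genes that rose and 23.9%, 26.5% and 19.7% that fell, the number that fell was near the background. These splits moved with the scaling, to 15 and 6, 15 and 9, and 15 and 7 with median-of-ratios scaling and to 11 and 7, 13 and 10, and 14 and 7 with quantile normalization. Without replicate 2 of all groups the TLR4-WT counts were 8 and 5. The largest rises were those of Zbp1, a sensor of Z-form nucleic acid, and Irf7, the transcription factor that amplifies interferon production. The 3 genotypes had mean Zbp1 levels of 23.2 (TLR4-WT), 6.501 (TLR4-K730R) and 6.65 FPKM (TLR4-K810R) without LPS and of 240.4, 234 and 199.8 FPKM with LPS, with log2 differences of 3.33, 4.97 and 4.71. Irf7 went from 110.3 to 830.3, from 14.8 to 823 and from 15.2 to 715 FPKM (2.95, 5.95 and 5.47). The largest falls were those of Nlrc3, an inhibitor of STING (-2.08, -2.47 and -2.24), of Rnaseh2c, a subunit of the nuclease that removes RNA from RNA-DNA hybrids (-1.36 in TLR4-WT and -1.33 in TLR4-K810R), and in TLR4-K730R of Slc19a1, a carrier of folate and cyclic dinucleotides (-1.57). Under both scalings each of these calls was kept.

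Mb21d1, the gene of the DNA sensor cGAS, went from 1.87 to 3.71 FPKM in TLR4-WT (0.72 on the log2 scale, adjusted p = 0.0539 from limma). Its mean levels in TLR4-K730R were 1.11 and 3.89 FPKM (1.34, adjusted p = 0.00143) and those in TLR4-K810R 1.09 and 3.14 FPKM (0.98, adjusted p = 0.0142 from limma), so that it passed the threshold in TLR4-K730R, but the difference between the genotypes was not called (adjusted p = 0.824 and 0.838 from limma for the interactions). With either scaling it was called in TLR4-K810R too (adjusted p = 0.00602 and 0.0019 from limma), and the TLR4-K730R call was lost with a pseudocount of 0.1, from the first exons alone, in a fit of the compared groups alone and without replicate 1 or 3 of all groups (adjusted p from 0.0114 to 0.0299), and without replicate 1 of mock-treated TLR4-K730R the difference was 0.86. Irf3, the target of TBK1, was at 10.6 FPKM before and after LPS in TLR4-WT, and its mean went from 10.8 to 10.5 FPKM (TLR4-K730R) and from 11.6 to 11.4 FPKM (TLR4-K810R) in the mutants (adjusted p = 0.923, 0.945 and 1 from limma). Among 8 tested genes of the scaffolds and transcription factors, 3, 3 and 4 rose and 1, 1 and 0 fell in the 3 genotypes, in the order wild type, TLR4-K730R, TLR4-K810R. The genes that rose included Tank and Azi2, which hold TBK1 and IKKε in complexes, and the one that fell was Optn, whose call was lost with median-of-ratios scaling in both genotypes and with quantile normalization in TLR4-WT. They are named here after their values were seen, as are those in the next paragraph.

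For that list and those that follow, the shares of all tested genes are 10.4%, 9.32% and 9.08% higher and 23.9%, 26.5% and 19.7% lower, and with 7 to 9 genes a list, counts of 1 higher or 2 lower are near them. Of the 9 tested regulators of RIG-I-like receptors 1, 1 and 1 were higher and 3, 3 and 4 lower. Rnf135, a ubiquitin ligase that activates RIG-I, rose in each genotype, and Nlrx1 and Prkra fell in each, although Nlrx1 was not called in TLR4-WT with either scaling. Of 8 tested genes of the cGAS-STING arm 3, 4 and 3 rose and 3, 3 and 3 fell. Trim56, Surf4 and Lrrc8c rose in each genotype, except that Surf4 was not called in TLR4-WT with quantile normalization, and Enpp1, which degrades the messenger cGAMP made by cGAS, fell in each alongside Nlrc3. The 8 tested genes of nucleic acid clearance gave 1, 2 and 1 higher and 2, 2 and 2 lower, with the mitochondrial nuclease Pnpt1 higher in each. The 7 tested eIF2 kinases and regulators gave 2, 2 and 2 higher and 2, 2 and 1 lower. Ppp1r15b, a phosphatase subunit that reverses the phosphorylation of eIF2, rose in each genotype next to Zbp1, and Eif2ak3, the kinase PERK, fell in each. Median log2 differences over the 40 genes were 0.13, -0.13 and -0.04, against medians of -0.28, -0.36 and -0.26 over all tested genes.

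**Figure D5:**
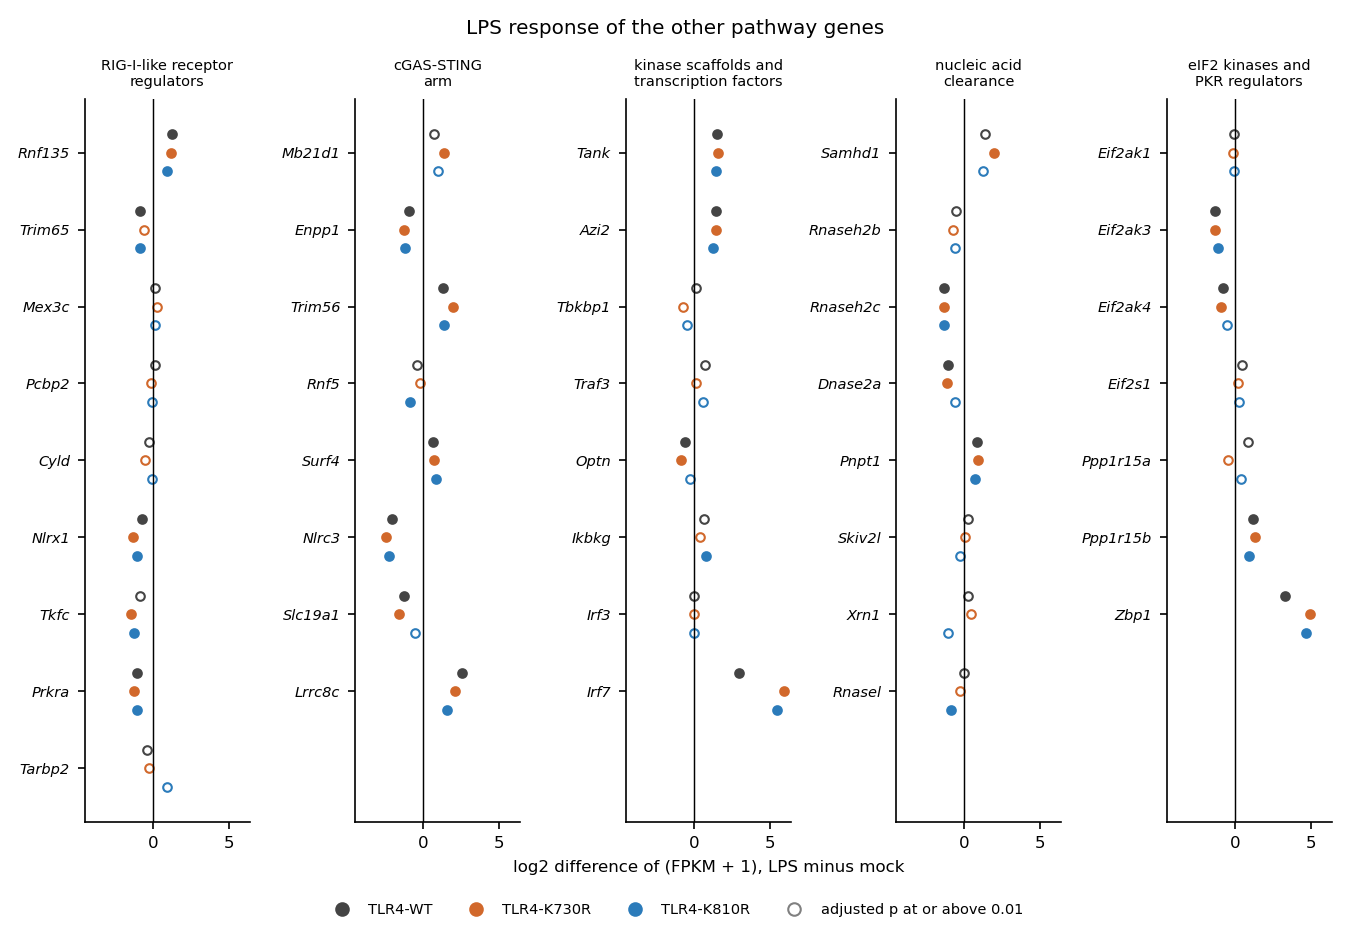
Log2 difference between LPS-treated and mock-treated macrophages on the log2(FPKM + 1) scale for the tested genes of the 5 pathway lists, 1 panel per list and 1 point per gene and genotype, filled where the gene was called. Zbp1 and Irf7 lie highest, at 2.95 to 5.95, and Nlrc3 lowest, at -2.47 to -2.08.

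Between the untreated genotypes none of the 40 genes was called higher, against 0.0515% (TLR4-K730R) and 0.927% (TLR4-K810R) of all tested genes, and 2 were called lower in each mutant, against 0.216% and 0.649%. These were both times Irf7 (-3.03 in TLR4-K730R and -2.75 in TLR4-K810R) and Zbp1 (-1.68 and -1.66). The Irf7 calls were lost in a fit of the compared groups alone (adjusted p = 0.137 and 0.0116 from limma) and without replicate 1 or 2 of all groups (adjusted p from 0.0245 to 0.0792). After LPS limma called none of the 40 between either mutant and TLR4-WT, against 0% and 0.134% of all tested genes. The LPS response of Zbp1 exceeded that of TLR4-WT by 1.65 in TLR4-K730R (adjusted p = 0.00015 from limma) and by 1.39 in TLR4-K810R (adjusted p = 0.000375), the 1 call among the 40 for each mutant, against 0.0412% and 0.124% of all tested genes. Both were lost without replicate 1 (adjusted p = 0.0845 and 0.0797 from limma) or replicate 2 (0.0598 and 0.0715) of all groups. Irf7 gave 3.01 and 2.53 and was not called (adjusted p = 0.0362 and 0.0343 from limma), but was called for TLR4-K730R without replicate 3 of its mock-treated libraries (3.59, adjusted p = 6.78e-05 from limma).

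A list of 14 further interferon targets was read in the same comparisons. After LPS 12, 13 and 13 rose in TLR4-WT, TLR4-K730R and TLR4-K810R, against 10.4%, 9.32% and 9.08% of all tested genes, with median log2 differences of 3.89, 5.19 and 5.09, above those of the 9 sensing genes. Without LPS 4 were called lower in TLR4-K730R and 8 in TLR4-K810R, against 0.216% and 0.649% of all tested genes, with medians of -1.50 and -2.01 against -0.46 and -0.51 for the 9 genes and 0.03 and 0.07 for all tested genes. With LPS limma called none of the 14 in either mutant, with medians of -0.34 and -0.72 against -0.04 and 0.11 for all tested genes. In the interactions 1 of the 14 was called higher in each mutant, Ifit3, with list medians of 1.11 and 0.94 against -0.06 and 0.04 for all tested genes. Both Ifit3 calls were lost without replicate 2 of all groups, where no gene was called in either interaction.

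The genes whose 6 group means followed those of a member most closely, by the root mean square difference of centred log2 means, were taken as a description with no test. For Ddx58 they were Ifi203 (0.0630), H2-T22 (0.207), Sp110 (0.233), Znfx1 (0.234) and Phf11d (0.267), where the median gene was at 1.76. Among the other members Dhx58 ranked 16 and Ifih1 ranked 25 of all tested genes in likeness to Ddx58, Eif2ak2 126, Adar 350, Ikbke 515 and Tbk1 1026, while Mavs (6620) and Tmem173 (7203) were far down. For Tmem173 the closest were Sept2 (0.0481), Scarf2, Asf1b, Hpgd and Dnajc9 (0.0868), where the median gene was at 0.363. For Tbk1 they were Ascc3 (0.0714), 2200002D01Rik, Gm31166, Pdlim7 and Zc3h7a (0.0953), where the median gene was at 0.574. The 6 means come from the same 18 libraries for every gene.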

How the data were processed

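Groups and replicate numbers were taken from the sample labels. The authors isolated total RNA with a column kit and had it sequenced on an Illumina platform, and the aligner and the program that made the tables are not given in the sources used here. The authors deposited FPKM values per transcript event, 80071 to 90401 events per library of 20 kinds, and events without expression are not listed. The submitters' notes name a human build, hg18, whereas 14126 of 14138 gene numbers and the coordinates are those of mouse GRCm38 (GENCODE M21). First-exon and last-exon events on the strand and overlapping the span of their gene were kept, which dropped 5.99% of their FPKM. Without counts, no count model could be used.

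Genes that reached 1 FPKM in 3 or more of 18 libraries were tested in 1 fit of 6 groups with limma 3.58.1 (R 4.3.3), intensity trend, pseudocount 1 and the threshold of the study's methods (adjusted p below 0.01). Single end events were fitted in the same way, first exons and last exons apart. Gene values came from Python 3.11.15 with pandas 2.3.3, and the tests were tried on simulated data. The 10 genes, the marker lists and the pathway lists were chosen with earlier results of these data known. Genes named by rule are all members, Mb21d1, Irf3 and Irf7, and the 5 genes most like Ddx58, Tmem173 and Tbk1. The rule also took, among pathway genes whose libraries do not overlap, the 2 largest called rises and 2 largest called falls of each LPS comparison. Other named pathway genes, single markers and Ifit3 lie outside this rule and were named after their values were seen. Alternatives covered pseudocount, filter, scaling, trend, library weights, replicate block, groups in the fit, the end of the gene used, threshold and left-out libraries. The labels give the same replicate numbers in each group, but deviations of mock-treated and LPS-treated libraries of the same number correlated with r from -0.05 to 0.09, so the numbers were not taken as pairs. Protein sequences were not used here.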

Additional observations from a re-analysis of the deposited data

Results flagged for a closer look

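The LPS response of Zbp1, a sensor of Z-form nucleic acid outside the 10 genes, differed between genotypes in the interaction test. Its libraries lay at 20.7 to 26.7 FPKM without LPS and at 238 to 243 FPKM with LPS in TLR4-WT, at 6.09 to 7.25 and 227 to 244 FPKM in TLR4-K730R, and at 6.09 to 6.99 and 178 to 214 FPKM in TLR4-K810R. The rise after LPS was larger than in TLR4-WT by 1.65 on the log2(FPKM + 1) scale in TLR4-K730R (SE 0.15, adjusted p = 0.00015 from limma) and by 1.39 in TLR4-K810R (SE 0.15, adjusted p = 0.000375 from limma). Both values share the TLR4-WT libraries, and the untreated level of both mutants was below that of TLR4-WT. The same test was passed by Ifit3, an interferon target, with differences of 1.99 in TLR4-K730R (adjusted p = 0.00103 from limma) and 2.17 in TLR4-K810R (adjusted p = 0.000231 from limma). Without replicate 2 of all groups no gene at all was called in either interaction, so the calls of both genes were lost. Those of Zbp1 were lost without replicate 1 of all groups too.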

How the results depend on the processing

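The depth behind each value is unknown, and with 3 libraries a group an exact test of 1 gene cannot go below p = 0.1, so all calls rest on limma's shared estimate of spread. The rises of Ddx58, Ifih1, Dhx58, Ikbke, Adar and Eif2ak2 after LPS were called in each genotype under every alternative in which the gene was tested. Adar could not be tested from the last exons alone, as its last exon was listed only in replicate 2 of mock-treated TLR4-WT. The number of the 9 genes called after LPS was 5 to 8 in TLR4-WT, 6 to 8 in TLR4-K730R and 6 to 7 in TLR4-K810R over the other settings, and 6 to 8, 6 to 7 and 6 to 7 with libraries left out. End events called in at least 1 of the 3 LPS comparisons were 14 of 23, and 12 to 18 over these settings.

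Between untreated mutants and TLR4-WT the calls were less stable. For TLR4-K730R the count of 1 fell to 0 with the replicate block and to 0 in a fit of the compared groups alone, and for TLR4-K810R the count of 2 fell to 1 with the replicate block and to 1 in that fit, while it rose to 3, with Adar, with a pseudocount of 0.1, no filter, quantile normalization, library weights or a threshold of 0.05. With libraries left out it was 0 to 1 for TLR4-K730R and 0 to 1 for TLR4-K810R. The replicate numbers share only a number (r from -0.05 to 0.09), and the block changed no other count of members called by over 1.5 times. At a threshold of 0.05, 1 member (Ddx58) was called between TLR4-K810R with LPS and the treated wild type, among 213 genes in all, and 1 in the interaction for TLR4-K810R (Dhx58), among 57. The latter was also 1 with quantile normalization and 1 with library weights, and 0 to 1 with libraries left out. The other comparisons of members gave 0 calls in every setting run.

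Of the 40 pathway genes, 13 were called after LPS in TLR4-WT without replicate 2 of all groups, against 21. Without LPS the 2 calls of each mutant became 1 in a fit of the compared groups alone, 1 from the first exons alone, where Zbp1 has no value, and 1 without replicate 1 or replicate 2 of all groups. For TLR4-K810R with LPS, 0 became 2 with library weights and 1 at a threshold of 0.05, and 0 to 1 with libraries left out. The 1 interaction of each mutant became 0 from the first exons alone, 2 at a threshold of 0.05 and 0 without replicate 1 or replicate 2 of all groups, 2 for TLR4-K810R in a fit of the compared groups alone, and 1 to 2 for TLR4-K730R with single libraries left out.

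Signs turned for differences near 0 or read from 1 end of a gene, and no turned value was called. Tmem173 after LPS in TLR4-WT was 0.13 with median-of-ratios scaling and 0.13 with quantile normalization, and Mavs in TLR4-K730R was 0.13 and 0.0627. Irf3, close to 0 after LPS in each genotype, was 0.36 and 0.26 in TLR4-K730R with the 2 scalings, -0.0242 in TLR4-WT with library weights, and -0.44 in TLR4-WT and -0.10 in TLR4-K810R from the last exon alone. With single libraries left out it ran from -0.20 to 0.26 (TLR4-WT), -0.12 to 0.11 (TLR4-K730R) and -0.15 to 0.13 (TLR4-K810R), without replicate 1 of all groups it was -0.18 in TLR4-K810R, and without replicate 2 of all groups -0.11 in TLR4-WT and 0.14 in TLR4-K730R. From its listed last exon alone, which lies inside the gene, Tbk1 gave -0.80 in TLR4-WT, the 1 called difference that turned (1.11, resting on the first exon). It also gave -0.0387 in TLR4-K810R and interactions of 1.74 and 0.76. With libraries left out, Mavs after LPS in TLR4-K810R ran from -0.64 to 0.0092, the latter without replicate 3 of its LPS-treated libraries, and the upstream first exon of Adar in TLR4-WT from -0.20 to 1.07, negative without replicate 1 or replicate 2 of all groups. Of the single called differences in the text, 929 recomputed values kept their side of the threshold, 66 lost it and 1 reversed, and of those not called, 923 kept it, 24 passed it and 24 reversed. The cause was not tested.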
